A study of Mus musculus with 13 samples.

Results

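Voltage-gated ion channel genes were taken from a table of Argonaute (AGO) peaks in mouse cortex as every gene whose symbol begins with Kcn, Cacn, Scn or Hcn followed by the letters and digits of a channel subunit, with antisense names left out. The rule found 64 of the 4652 named genes with a peak, holding 370 of 18284 peaks. The prefixes also take in inward rectifiers, leak channels and calcium- or sodium-activated potassium channels. These are counted in the class although its name says voltage-gated. Peaks labelled as UTR or coding sequence (CDS) are called exonic here, and the sequenced fragments counted in them are called tags. Exonic tags were found for 54 of the 64 channel genes, against 3365 genes in all. The channel genes held 210 of 11901 exonic peaks and 3153 of 198038 exonic tags, or 1.59%.

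Voltage-gated channels open when the membrane potential changes. Sodium channels carry the upstroke of the action potential, potassium channels end it and set the resting potential, and calcium channels couple it to transmitter release and gene expression. In cortex, energy failure during ischemia depolarizes neurons, and the channels then pass the sodium, calcium and potassium currents for which ischemic tissue is known. AGO proteins carry microRNAs (miRNAs) to matching sites, mostly in the 3'UTR of messenger RNAs, and AGO CLIP recovers the RNA crosslinked to AGO by ultraviolet light.

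All tissue was cortex of wild-type C57BL6 mice aged 7 to 8 weeks, and every group had been anesthetized with isoflurane. The MCAO ipsilateral group (5 libraries, replicates 1 to 5) was the hemisphere in which the middle cerebral artery had been blocked by a filament for 35 min, followed by 3 h of recovery. The MCAO contralateral group (4 libraries, replicates 1, 2, 4 and 5) was the opposite hemisphere of mice with the same surgery, and the sham group (4 libraries, replicates 1, 2, 3 and 5) had its arteries exposed without a filament. Each replicate number stood for a separate AGO CLIP preparation from its own day of surgery, and the number of animals per library and their pooling were not given in the sources used here. Values per library are given below in the order of these replicate numbers, as tags per 10000 exonic tags of the library unless another scale is named.

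The shallowest library was ipsilateral replicate 5, with 2750 exonic tags, and the deepest contralateral replicate 1, with 27542, so that 1 tag was worth 3.64 per 10000 in the shallowest library. The 3 libraries of replicate 1 held 5597 to 6718 intronic and intergenic tags per 10000 peak tags, against 2321 to 5078 in the other 10 libraries. Of 11 neuron marker genes, 8 had exonic tags, with Rbfox3, Tubb3 and Nefm at 0, and their sum was 286 ± 71.2 in ipsilateral libraries (173 to 349; SD, n = 5), 331 ± 26.3 in contralateral libraries (296 to 359; n = 4) and 310 ± 25.5 in sham libraries (282 to 334; n = 4). These genes did not move together. In the edgeR fit given below, 5 of 7 tested neuron markers were higher and 2 lower in ipsilateral against sham cortex. Snap25 had a log2 fold change of 1.15 (SE 0.33; edgeR adjusted p = 0.146) and Camk2a one of -0.89 (SE 0.24; edgeR adjusted p = 0.126). The 7 astrocyte markers, 5 of which had tags with Gfap and Aldh1l1 at 0, summed to 274 ± 54.5 in ipsilateral (179 to 312), 337 ± 79.7 in contralateral (286 to 455) and 283 ± 29.8 in sham libraries (259 to 322). The 7 oligodendrocyte lineage markers, with Mog and Mag at 0, summed to 32.6 ± 14.0 in ipsilateral (10.9 to 46.1), 46.9 ± 10.3 in contralateral (40.0 to 61.8) and 47.0 ± 6.04 in sham libraries (39.7 to 54.2). Microglia markers had 24 tags in all (1 of 6 genes, with Cx3cr1, P2ry12, Tmem119, Aif1 and Itgam at 0), with 0 to 4.97 per 10000 in ipsilateral, 0 to 2.54 in contralateral and 0.550 to 1.60 in sham libraries. Vascular markers had 27 tags (2 of 5 genes, with Cldn5, Pecam1 and Tek at 0) and blood markers 23 (1 of 4 genes). The part of these cell types in the channel values was not tested. In such bulk tissue, fewer cells of a type, less RNA per cell and less AGO on the RNA cannot be told apart.

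Among the 20 channel 3'UTR peaks with the most tags, 16 could be searched, and 9 of these held a match to the seed (bases 2 to 8) of a listed brain miRNA family. Some of these sites are shown because they are the stretches on channel messages where AGO tags and a seed match coincide. A site was a match to bases 2 to 8, or to bases 2 to 7 followed by A, read on the transcript strand only. Letters in capitals mark the match, coordinates are on mm10, and transcript sequence is from GENCODE M21.
Cacnb4, miR-204 site, chr2:52431181-52431188, minus strand: gggggcgtggAAAGGGAAtgaagacaaa
Kcna2, miR-25/miR-92 site, chr3:107110880-107110887, plus strand: aagaggaaatGTGCAATAaaagcaatag
Kcna2, miR-137 site, chr3:107110890-107110896, plus strand: gtgcaataaaAGCAATAgtgactgttt
Kcna2, miR-132/miR-212 site, chr3:107110899-107110905, plus strand: aagcaatagtGACTGTTttctttagca
Scn2a1, miR-218 site, chr2:65766024-65766030, plus strand: aaaatgatttAAGCACAgtatttactg
Scn2b, miR-125 site, chr9:45127803-45127810, plus strand: ctaagacagtCTCAGGGAccaatacttg

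The miRNAs that these sites match are given with their seeds in capitals. The mature sequences are from RefSeq on GRCm38.p6. No pair of the 6 shares a seed.
miR-204-5p: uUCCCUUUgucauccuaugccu
miR-92a-3p: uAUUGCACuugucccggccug
miR-137-3p: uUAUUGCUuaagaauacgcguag
miR-132-3p: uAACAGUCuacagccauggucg
miR-218-5p: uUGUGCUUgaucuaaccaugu
miR-125b-5p: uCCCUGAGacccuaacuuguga

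The Kcna2 peak at chr3:107110835-107110914 (3'UTR, also labelled intron) carried 4 matches between positions 107110880 and 107110905, namely the 3 shown and another miR-137 match that overlaps the miR-25/miR-92 site. It had 33 tags, 21 in ipsilateral, 6 in contralateral and 6 in sham libraries. Of the 21 ipsilateral tags, 14 came from replicate 1, with 4, 3, 0 and 0 in replicates 2 to 5. The most tagged Cacnb4 peak (42 tags, 13 of them ipsilateral) held 1 match. The 4 of the 20 peaks that were not searched, all of Kcna1, lay beyond the annotated transcript. Further matches in these peaks were to miR-495, miR-101, miR-128 and miR-27 in Cacna2d1, to miR-129 in a stretch rich in A in Kcna2, to miR-24 in Scn2a1 and to miR-15/miR-16 in Scn8a. The miR-128 and miR-27 matches in Cacna2d1 were the same bases.

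Mature sequences were found for 37 of 40 listed families, and those of miR-124, miR-145 and miR-23 were not used here. Of 141 channel 3'UTR peaks that had 50 or more bases on a transcript, 63 (44.7%) held a match to any of the 37 families, against 42.2% of 7716 3'UTR peaks of all genes. Matches to miR-129 (GCAAAAA or CAAAAAA) were found in 9 channel peaks, 6.38% against 4.20% of all 3'UTR peaks. Matches to miR-9 (ACCAAAG or CCAAAGA) were found in 8, 5.67% against 2.41%, and to miR-137 (AGCAATA or GCAATAA) in 6, 4.26% against 1.87%. The miR-125 (CTCAGGG or TCAGGGA), miR-25/miR-92 (GTGCAAT or TGCAATA), miR-204 (AAAGGGA or AAGGGAA), miR-218 (AAGCACA or AGCACAA) and miR-153 (CTATGCA or TATGCAA) families each had matches in 5 channel peaks, or 3.55%. For these 5 families the share of all 3'UTR peaks was 1.11%, 1.15%, 1.74%, 1.61% and 1.46% in the same order. The miR-132/miR-212 motifs (GACTGTT or ACTGTTA) were in 3 channel peaks, 2.13% against 1.63%. Apart from miR-132/miR-212, whose site is shown above, the families given are those with matches in 5 or more channel peaks. That choice favours families with a higher channel share. Other families were lower in channel peaks, among them miR-495 (0.71% against 2.97%), miR-30 (1.42% against 2.37%), let-7 (0.71% against 1.56%) and miR-29 (0.71% against 1.66%). These counts are small and describe letters under the peaks, not which miRNA was bound.

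The voltage-gated potassium alpha subunits held the largest share of channel tags, and 599 of their 1271 exonic tags were on Kcna1. The 18 voltage-gated potassium alpha subunit genes had 1271 exonic tags (40.3% of the channel total), the 5 sodium channel alpha genes 646 (20.5%) and the 8 calcium channel auxiliary genes 408 (12.9%). The 4 sodium channel beta genes had 230 tags, the 7 calcium channel alpha1 genes 202, the 4 inward rectifiers 118, the 6 calcium- or sodium-activated potassium channels 104, the 5 tandem-pore potassium leak channels 96, the 5 potassium channel auxiliary genes 61 and the 2 HCN pacemaker genes 17. Counts per gene were uneven. No exonic tags were found for 10 genes, 1 to 9 for 12 genes, 10 to 99 for 35 genes and 100 or more for 7 genes, which together had 1840 tags (58.4%). These sums are not divided by transcript length.

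**Figure D1:**
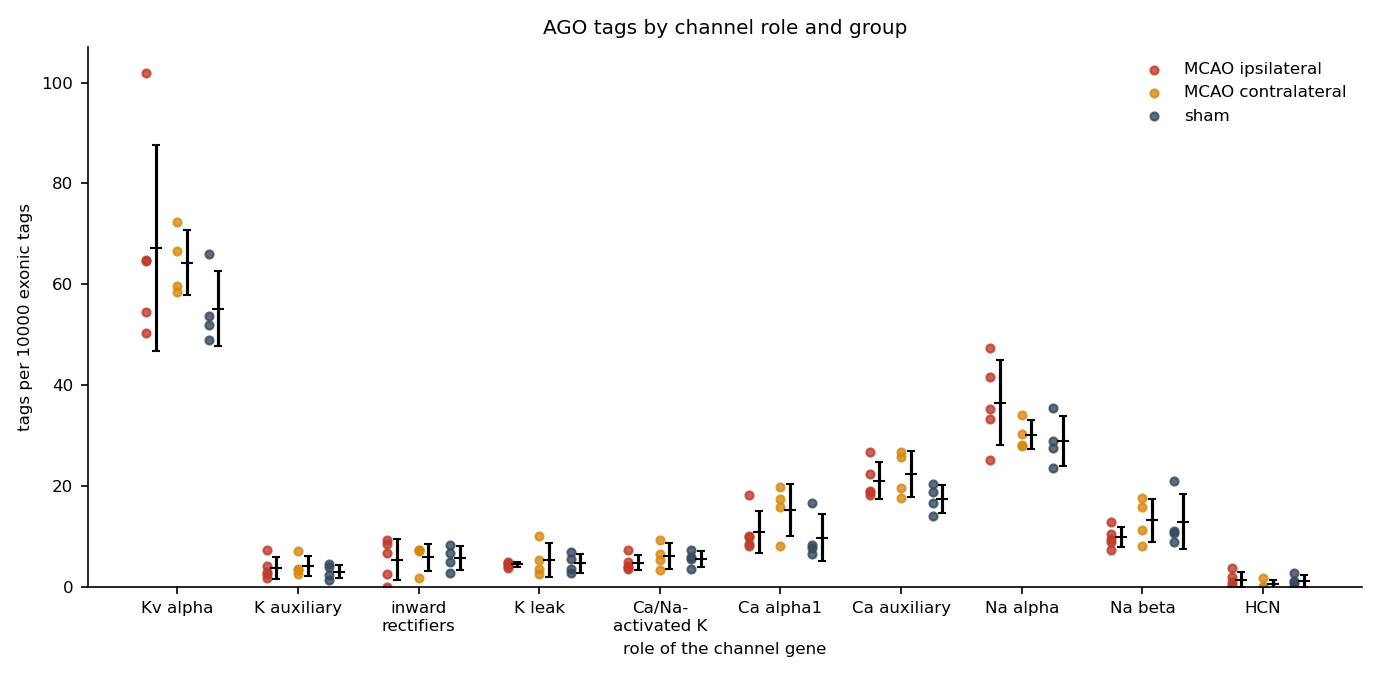
Tags per 10000 exonic tags (y axis) for each channel role (x axis), 1 point per library with the mean and SD as a black bar, in MCAO ipsilateral, MCAO contralateral and sham libraries. The groups overlap in every role, and ipsilateral replicate 1 stands at 102 for the voltage-gated potassium (Kv) alpha subunits.

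The first question the design asks is whether channel messages carried more or fewer AGO tags in the ischemic hemisphere. No channel gene was called in any comparison. Of 436 genes that passed the filter on low counts, 7 were channel genes, among them Kcna1, Scn8a, Cacna2d1, Scn2a1, Kcna2 and Scn4b. With edgeR's quasi-likelihood test and Benjamini-Hochberg adjustment over the 436 genes, 0 of the 7 were called in ipsilateral against sham cortex, where the background was 0.229% of all genes (1 gene). In ipsilateral against contralateral and in contralateral against sham cortex 0 of 7 were called, with backgrounds of 0% each. At an unadjusted p under 0.05, 0 of the 7 passed in any of the 3 comparisons, against 41, 53 and 7 of the 436 genes. That fit does not pair the libraries. With the replicate number, which marks the day of surgery, as a block, 0 of the 7 were called, but 2, 1 and 1 had an unadjusted edgeR p under 0.05 in the 3 comparisons, against 50, 61 and 18 of the 436 genes. With DESeq2, 0 of the channel genes were called, against 7, 6 and 0 genes in all. The median log2 fold change of the 7 was 0.24 in ipsilateral against sham, 0.15 in ipsilateral against contralateral and 0.30 in contralateral against sham, beside medians over all tested genes of -0.02, 0.01 and -0.01. The other 57 channel genes did not pass the filter, and those of them with at least 20 exonic tags entered the exact tests. The ipsilateral libraries enter 2 of the comparisons and the sham libraries 2, so the comparisons are not independent of each other.

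Kcna1 encodes a low-threshold potassium channel subunit of axons that limits repetitive firing, and it had 599 exonic tags, of which 585 lay in its 3'UTR. Its shares were 53.7, 30.3, 28.1, 18.8 and 29.1 per 10000 in ipsilateral libraries, 21.8, 37.3, 29.8 and 36.2 in contralateral libraries and 22.1, 28.5, 39.0 and 23.1 in sham libraries. Ipsilateral replicate 1 was the highest of the 13 libraries and ipsilateral replicate 4 the lowest, and the groups overlapped. Its log2 fold change was 0.29 (SE 0.31) in ipsilateral against sham, edgeR giving an adjusted p of 0.775. Without ipsilateral replicate 1 it was -0.10, so its sign rests on that library. Ipsilateral replicate 1 also stood apart in cell markers, with 173 tags per 10000 on neuron markers (280 to 349 in the other ipsilateral libraries), 179 on astrocyte markers (276 to 312) and 4.97 on microglia markers (0 in the others). The part of these differences in its high Kcna1, Kcna2 and Kv alpha shares was not tested.

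The 36 Kcna1 3'UTR peaks were spread over 5454 bases of chromosome 6 (chr6:126636453-126641906, minus strand). Single peaks had 5 to 46 tags, with a median of 14.5, and the highest, chr6:126640806-126640885, had 21 ipsilateral, 10 contralateral and 15 sham tags. Peaks more than 3000 bases beyond the stop codon numbered 15 of the 36. The peaks thus did not gather at 1 site but ran along the whole span in each group.

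**Figure D2:**
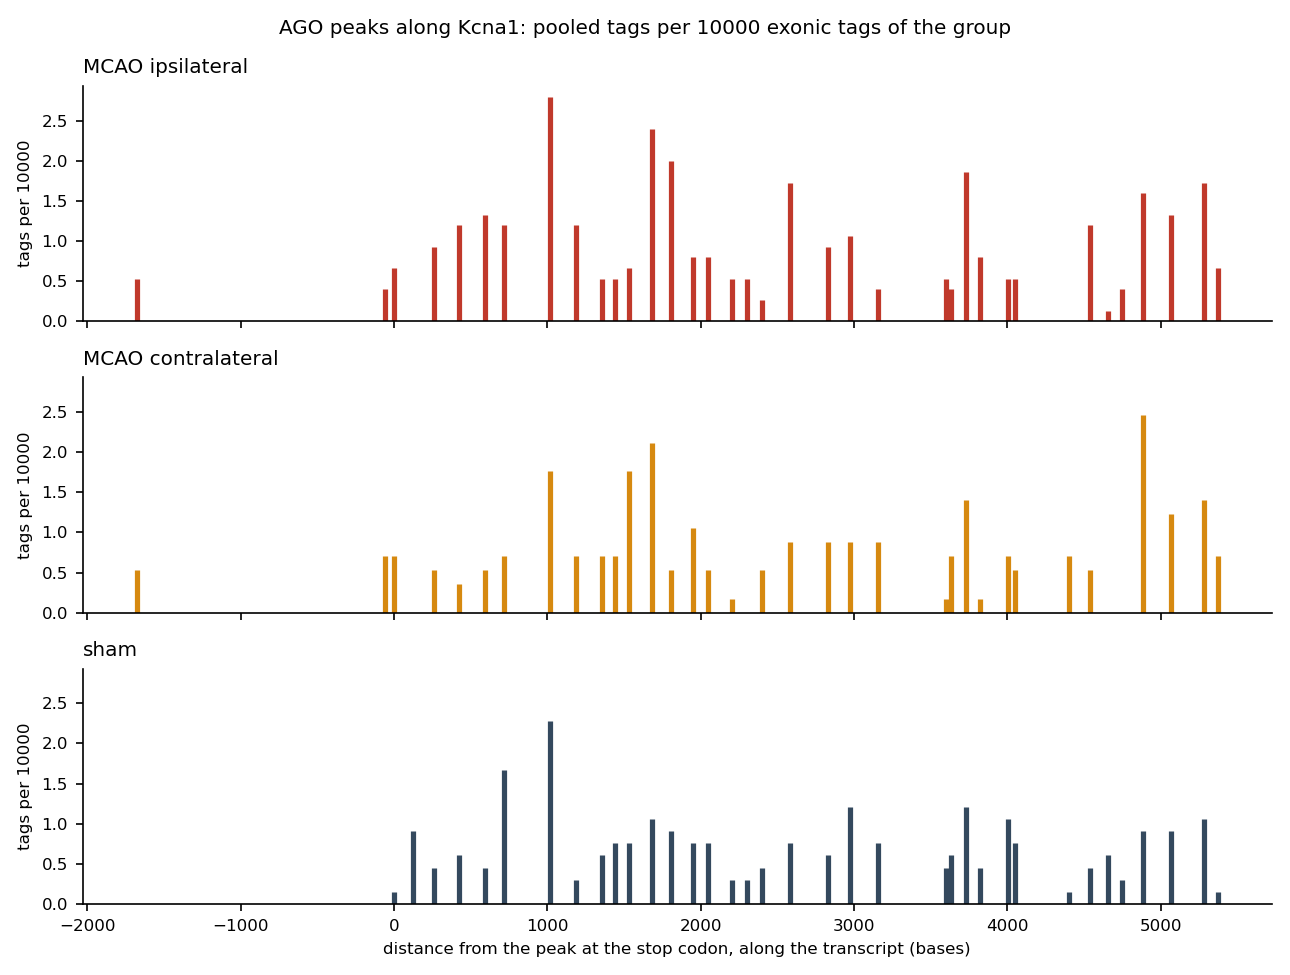
Each vertical line is 1 of the 38 exonic Kcna1 peaks, placed by its distance in bases from the peak at the stop codon along the transcript (x axis), with its pooled tags per 10000 exonic tags of the group (y axis), for MCAO ipsilateral, MCAO contralateral and sham libraries from top to bottom. The peak with 46 tags, at 1021 bases, is the highest in ipsilateral (21 tags) and sham libraries (15 tags). In contralateral libraries it has 10 tags, fewer than the peaks at 4884 bases (14 tags) and 1685 bases (12 tags). Beyond 3000 bases lie 15 peaks.

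Kcna2 encodes a partner of the Kcna1 subunit in axonal channels and had 153 exonic tags in 6 peaks. Its shares were 16.9, 7.89, 6.80, 4.19 and 7.27 in ipsilateral libraries, 6.54, 9.33, 3.51 and 16.3 in contralateral libraries and 6.82, 4.17, 1.18 and 4.40 in sham libraries. Ipsilateral replicates 1, 2 and 5 lay above all sham libraries, while ipsilateral replicate 4 lay among them and ipsilateral replicate 3 just under the highest. The means were 8.61 ± 4.85 (SD, n = 5) in ipsilateral, 8.93 ± 5.48 (n = 4) in contralateral and 4.14 ± 2.31 (n = 4) in sham libraries. The log2 fold change against sham was 1.05 (SE 0.51; edgeR adjusted p = 0.483) for ipsilateral and 0.90 (SE 0.53; edgeR adjusted p = 0.994) for contralateral cortex. Without ipsilateral replicate 1 the Kcna2 value for ipsilateral against sham was 0.47. In the 4 pairs of libraries with the same replicate number, Kcna2 was higher in the ipsilateral than in the sham library each time. With the replicate block, its log2 fold change was 1.33 (SE 0.45) in ipsilateral against sham, with an unadjusted edgeR p of 0.00688 and an adjusted p of 0.217. For contralateral against sham the blocked value was 0.99 (SE 0.47), with an unadjusted edgeR p of 0.0477 and an adjusted p of 0.969. The exact two-sided permutation test gave p = 0.0952 for ipsilateral against sham before adjustment and 0.626 after adjustment over 1669 genes.

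Of the 27 channel genes with at least 20 exonic tags, 1 was higher in all ipsilateral than in all sham libraries, where the background was 0.899% of 1669 genes, and 1 was lower (Kcnk3), where the background was 1.98%. In ipsilateral against contralateral cortex 0 were higher (background 0.719%) and 0 lower (2.16%). In contralateral against sham cortex 0 were higher (1.38%) and 0 lower (1.8%). A single gene of 27 in either direction is the smallest count above 0, and nothing is read from it about the class.

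Other named Kv alpha genes overlapped between groups. Kcnc1, a fast-activating channel of neurons that fire at high rates, had 3.92 ± 3.76 in ipsilateral, 5.01 ± 1.68 in contralateral and 3.42 ± 1.02 in sham libraries, and 57 of its 95 exonic tags lay in coding sequence. Kcnh5 had 3.49 ± 2.54 in ipsilateral, 4.05 ± 1.63 in contralateral and 3.42 ± 2.16 in sham libraries, with 51 of 65 exonic tags in coding sequence. Kcnv1, a silent subunit that modifies other potassium channels, had 2.65 ± 2.88 in ipsilateral, 0.757 ± 1.28 in contralateral and 0.649 ± 0.465 in sham libraries, all from 1 peak with 26 tags. As a class, the Kv alpha genes had 67.2 ± 20.4 in ipsilateral (50.3 to 102), 64.3 ± 6.47 in contralateral (58.5 to 72.3) and 55.2 ± 7.52 in sham libraries (48.9 to 66.1). Of the 14 with exonic tags, 10 had a higher and 4 a lower mean share in ipsilateral than in sham libraries.

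Sodium channel alpha genes make the pore that drives the action potential. Scn8a, the channel of mature axon initial segments and nodes, had 352 exonic tags in 16 peaks. Its shares were 14.4, 16.6, 23.0, 8.38 and 14.5 in ipsilateral libraries, 21.4, 15.997, 12.3 and 17.5 in contralateral libraries and 17.7, 18.8, 14.2 and 18.1 in sham libraries. The groups overlapped, and both the highest and the lowest library were ipsilateral. The log2 fold change was -0.10 (SE 0.27; edgeR adjusted p = 0.980) in ipsilateral against sham and -0.07 (SE 0.27; edgeR adjusted p = 0.955) in ipsilateral against contralateral.

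Scn2a1, the table's name for Scn2a, encodes a sodium channel of excitatory neurons and had 215 exonic tags. Its shares were 15.4, 11.6, 10.6, 10.5 and 29.1 in ipsilateral libraries, 10.9, 11.3, 8.77 and 10.5 in contralateral libraries and 8.42, 13.2, 2.36 and 8.25 in sham libraries. Ipsilateral replicate 5 was the highest with 8 tags, sham replicate 3 was the lowest with 2 tags, and sham replicate 2 lay within the ipsilateral range. Fitted to all 13 libraries, its log2 fold change was 0.72 (SE 0.36; edgeR adjusted p = 0.483) in ipsilateral against sham, 0.43 (SE 0.36; edgeR adjusted p = 0.626) in ipsilateral against contralateral and 0.30 (SE 0.38; edgeR adjusted p = 0.994) in contralateral against sham. With the replicate block, Scn2a1 had 0.87 (SE 0.35) in ipsilateral against sham, with an unadjusted edgeR p of 0.0209 and an adjusted p of 0.337. Scn1a, the sodium channel of inhibitory interneurons, had 5.36 ± 1.97 in ipsilateral, 2.96 ± 2.79 in contralateral and 3.52 ± 2.57 in sham libraries, all in the 3'UTR.

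**Figure D3:**
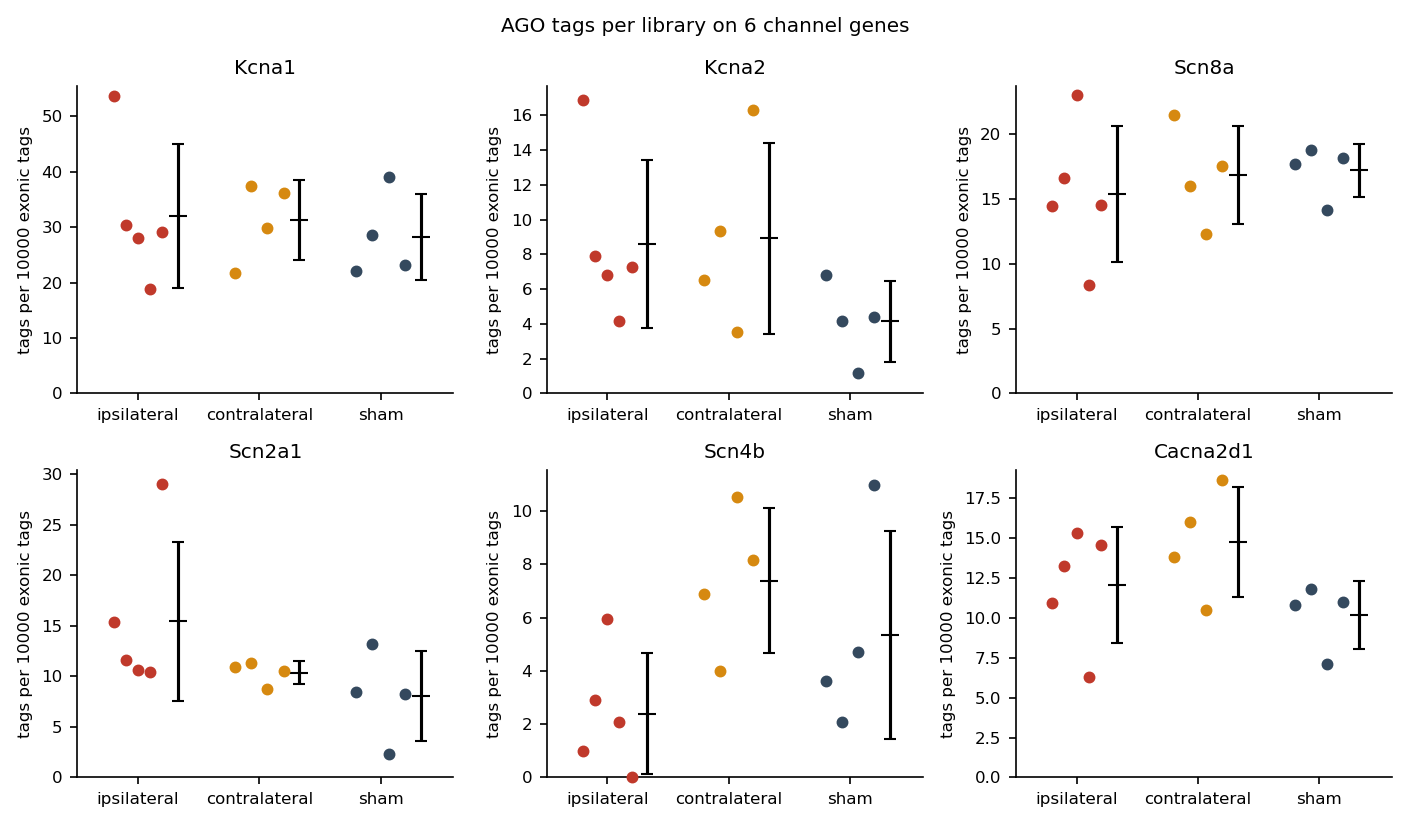
Tags per 10000 exonic tags (y axis) for Kcna1, Kcna2, Scn8a, Scn2a1, Scn4b and Cacna2d1, 1 point per library in replicate order with the mean and SD beside it, for MCAO ipsilateral, MCAO contralateral and sham libraries (x axis). The ipsilateral and sham points overlap in each of the 6 genes, and Kcna1 and Scn2a1 each have 1 ipsilateral point far above the rest, at 53.7 and 29.1.

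Sodium channel beta subunits are small membrane proteins that modulate gating and adhesion. Scn4b, the subunit tied to resurgent sodium current, had 0.994, 2.91, 5.95, 2.09 and 0 in ipsilateral libraries, 6.90, 4.00, 10.5 and 8.16 in contralateral libraries and 3.61, 2.09, 4.72 and 11.0 in sham libraries. Ipsilateral libraries lay below contralateral ones except that ipsilateral replicate 3 exceeded contralateral replicate 2. Sham replicate 5 was the highest of the 13. For Scn4b the fitted log2 fold change was -1.17 (SE 0.57; edgeR adjusted p = 0.397) in ipsilateral against contralateral and -0.84 (SE 0.56; edgeR adjusted p = 0.598) in ipsilateral against sham. With the replicate block it was -1.30 (SE 0.58) in ipsilateral against contralateral, with an unadjusted edgeR p of 0.0353 and an adjusted p of 0.333. The exact two-sided permutation test for ipsilateral against contralateral gave p = 0.0317 before and 0.570 after adjustment over 1669 genes.

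Scn2b had 2.48 ± 2.37 in ipsilateral, 3.18 ± 1.17 in contralateral and 3.82 ± 1.68 in sham libraries, and its groups overlapped. The sodium channel alpha genes together had 36.5 ± 8.42 in ipsilateral, 30.1 ± 2.88 in contralateral and 28.9 ± 4.93 in sham libraries, whereas the beta genes had 9.80 ± 2.02 in ipsilateral, 13.1 ± 4.32 in contralateral and 12.9 ± 5.44 in sham libraries.

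Among the calcium channel auxiliary genes, the Cacna2d and Cacnb subunits bring the pore to the membrane and set its current. By symbol, the role also counts Cacng2, Cacng3 and Cacng8, to which that description is not applied here. Cacna2d1, the subunit bound by gabapentin, had 10.9, 13.3, 15.3, 6.28 and 14.5 in ipsilateral libraries, 13.8, 15.997, 10.5 and 18.7 in contralateral libraries and 10.8, 11.8, 7.08 and 11.0 in sham libraries. The lowest library was ipsilateral and the highest contralateral, and the groups overlapped. Its fitted log2 fold change was 0.24 (SE 0.27; edgeR adjusted p = 0.807) in ipsilateral against sham and 0.47 (SE 0.28; edgeR adjusted p = 0.994) in contralateral against sham. Cacnb4, an intracellular beta subunit, had 5.97, 4.98, 6.80, 4.19 and 3.64 in ipsilateral libraries, 5.45, 7.33, 5.26 and 5.83 in contralateral libraries and 2.81, 4.87, 7.08 and 3.30 in sham libraries. It did not pass the filter, and its 3 groups overlapped. The auxiliary genes together had 21.0 ± 3.62 in ipsilateral, 22.4 ± 4.48 in contralateral and 17.4 ± 2.75 in sham libraries.

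The calcium channel alpha1 genes form the pores. Cacna1a, which encodes the P/Q-type channel of nerve terminals, had 4.27 ± 4.13 in ipsilateral, 4.49 ± 2.83 in contralateral and 3.24 ± 2.16 in sham libraries. Cacna1e (R-type) had 1.67 ± 1.76 in ipsilateral, 4.08 ± 2.76 in contralateral and 3.81 ± 1.91 in sham libraries. Cacna1b (N-type) had 1.52 ± 1.62 in ipsilateral, 3.03 ± 2.78 in contralateral and 1.04 ± 0.237 in sham libraries. None of the 3 had groups that lay apart, and as a class the alpha1 genes had 10.9 ± 4.16 in ipsilateral, 15.2 ± 5.11 in contralateral and 9.71 ± 4.61 in sham libraries.

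Potassium channels that hold the resting potential had few tags. Kcnj2, an inward rectifier, had 2.54 ± 2.36 in ipsilateral, 1.50 ± 1.18 in contralateral and 2.26 ± 1.37 in sham libraries. Kcnj10, the rectifier through which astrocytes clear potassium, had 0.792 ± 1.06 in ipsilateral, 1.75 ± 1.25 in contralateral and 1.87 ± 0.465 in sham libraries. Kcnj6, a rectifier opened by G proteins, had 1.42 ± 1.99 in ipsilateral, 1.21 ± 1.41 in contralateral and 1.51 ± 1.48 in sham libraries. The 3 rectifiers overlapped between groups. Kcnk10, a leak channel opened by stretch and lipids, had 2.49 ± 1.67 in ipsilateral, 2.26 ± 1.62 in contralateral and 2.10 ± 1.46 in sham libraries.

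Kcnk3, a leak channel closed by acid, was named after its values were seen, because it was the channel gene that lay wholly lower in ipsilateral libraries. It had 21 exonic tags, with 0, 0, 0.850, 0 and 0 per 10000 in ipsilateral libraries, 0.726, 4.67, 0 and 0 in contralateral libraries and 1.60, 1.39, 2.36 and 1.10 in sham libraries. Its 2 exonic peak windows, chr5:30624899-30624978 (11 tags) and chr5:30624918-30624997 (10 tags), overlap. Tags could be counted in both, so the sum may exceed the number of separate tags. The ipsilateral libraries were at 0 but for 2 tags in replicate 3, while contralateral replicates 4 and 5 were at 0, replicate 1 lay below all sham libraries and replicate 2 above them. The exact two-sided permutation test for ipsilateral against sham gave p = 0.0159, the smallest that 5 against 4 libraries allow, and 0.552 after adjustment over the 1669 genes with at least 20 exonic tags. Any gene picked for lying wholly apart gives this p, so it is no further evidence. Neither peak of Kcnk3 alone would reach 20 tags. At 0 tags, the limits (3 tags, counting error only) were 1.49, 1.25, 6.28 and 10.9 per 10000 in ipsilateral replicates 1, 2, 4 and 5, and each of these reaches into or past the sham range.

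Among the channels opened by calcium, Kcnn2, a small-conductance channel, had 0.732 ± 0.867 in ipsilateral, 2.85 ± 1.69 in contralateral and 1.83 ± 0.533 in sham libraries, and Kcnma1, the large-conductance channel, had 1.43 ± 1.37 in ipsilateral, 2.19 ± 0.938 in contralateral and 1.34 ± 0.715 in sham libraries. Kcnip2, a calcium-binding partner of A-type potassium channels, had 2.30 ± 1.56 in ipsilateral, 2.70 ± 1.90 in contralateral and 1.65 ± 1.38 in sham libraries. The ranges of the 3 genes overlapped in each comparison. The 2 HCN genes, which carry the pacemaker current, had 17 exonic tags together, too few to compare.

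Taken as a class, the channel genes had 188, 160, 176, 134 and 167 tags per 10000 exonic tags in ipsilateral libraries, 150, 171, 158 and 189 in contralateral libraries and 134, 154, 140 and 147 in sham libraries. Ipsilateral replicate 4 lay with the lowest sham library, and the other 4 ipsilateral libraries lay above all 4 sham libraries. The means were 165 ± 20.3 (SD, n = 5) in ipsilateral, 167 ± 16.9 (n = 4) in contralateral and 144 ± 8.78 (n = 4) in sham libraries, a log2 ratio of 0.20 for ipsilateral against sham. No test was made of the class, because its members were chosen with results of these data known. In 3'UTR peaks alone the class had 178 ± 29.9 per 10000 3'UTR tags in ipsilateral, 192 ± 18.6 in contralateral and 171 ± 17.0 in sham libraries. The log2 ratio for ipsilateral against sham was 0.05 on that scale. For all other named genes, 3'UTR peaks held 77.0 ± 1.78% of exonic tags in ipsilateral and 70.6 ± 4.35% in sham libraries. For channel genes they held 82.6 ± 6.20% and 83.9 ± 1.65%. The denominator was thus larger in ipsilateral libraries, and the 0.05 does not show that the class difference was absent from 3'UTR peaks.

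Of the 54 channel genes with exonic tags, 34 had a higher and 20 a lower mean share in ipsilateral than in sham libraries, 63.0% higher beside 46.5% of all 3365 genes. Against contralateral libraries, 27 were higher and 27 lower in ipsilateral libraries, 50.0% beside 50.1% of all genes. In contralateral against sham libraries, 28 were higher and 26 lower, 51.9% beside 45.8%. The ipsilateral lean towards higher shares came from small differences that single genes did not carry past their spread.

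Channel tags in coding sequence gave another picture. As a share of all CDS tags they were 123 ± 18.2 per 10000 in ipsilateral (109 to 154), 101 ± 15.5 in contralateral (82.2 to 118) and 86.4 ± 4.47 in sham libraries (80.1 to 90.2), so that all 5 ipsilateral libraries lay above all 4 sham libraries. All CDS peaks together held 2027 ± 204 tags per 10000 exonic tags in ipsilateral, 2569 ± 298 in contralateral and 2606 ± 424 in sham libraries, so the denominator was lower in ipsilateral libraries. As a share of exonic tags, channel CDS tags were 25.1 ± 6.03 in ipsilateral, 25.9 ± 4.39 in contralateral and 22.5 ± 3.63 in sham libraries, and the groups overlapped.

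**Figure D4:**
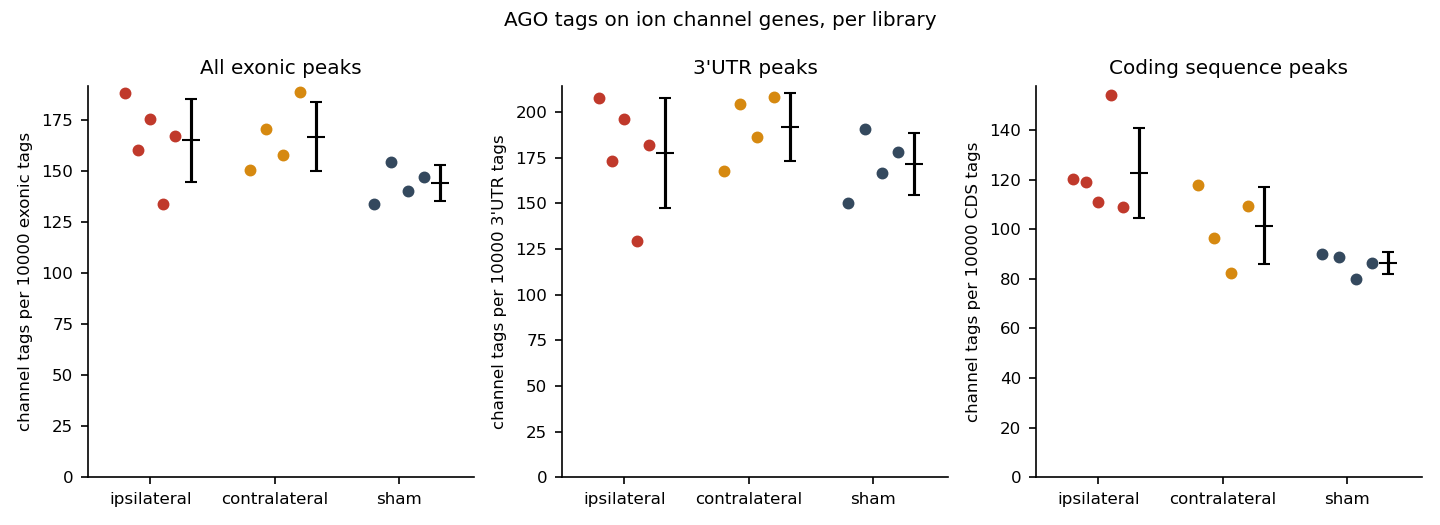
Channel tags per 10000 tags (y axis) over all exonic peaks, over 3'UTR peaks and over coding sequence (CDS) peaks, 1 point per library with the mean and SD beside it, for MCAO ipsilateral, MCAO contralateral and sham libraries (x axis). Groups overlap over exonic and 3'UTR peaks, and over CDS peaks the ipsilateral libraries (109 to 154) stand above the sham libraries (80.1 to 90.2).

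The place of the tags along the gene was compared with that of other genes as a description, with no test. Of the exonic tags of channel genes, 82.6 ± 6.20% lay in 3'UTR peaks in ipsilateral, 82.3 ± 3.36% in contralateral and 83.9 ± 1.65% in sham libraries. For all other named genes the share was 77.0 ± 1.78% in ipsilateral, 71.5 ± 3.48% in contralateral and 70.6 ± 4.35% in sham libraries. The channel share was the higher in 12 of 13 libraries, and the exception was ipsilateral replicate 4 with 71.9% for channel and 74.4% for other genes. Along the span of their 3'UTR peaks, Scn2a1 had 113 tags per 1000 bases, Kcna1 107.3, Scn8a 61.7, Cacna2d1 58.4, Scn4b 51.7, Cacnb4 28.0 and Kcna2 21.4, summed over the 13 libraries. The order per length differed from the order by exonic tags, in which Kcna1 had 599, Scn8a 352, Cacna2d1 251 and Scn2a1 215. Exonic peak windows overlapped a neighbour in 39 of 210 channel peaks (18.6%) and in 3019 of 11901 peaks of all genes (25.4%), and tags in such windows could be counted in both.

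Other genes of membrane excitability that are not channels of this class were read from fixed lists. Of 27 channel partners (anchors and scaffolds), 17 had exonic tags and 6 were tested. With edgeR and with DESeq2, 0 of the 6 were called in any comparison, and 0, 2 and 0 had an unadjusted edgeR p under 0.05 in ipsilateral against sham, ipsilateral against contralateral and contralateral against sham cortex. Of the 6, 1 was higher and 5 lower in ipsilateral against contralateral cortex, with a median log2 fold change of -0.29 against 0.01 over all 436 genes. Ank2, the ankyrin that anchors channels, had a log2 fold change of -0.60 (SE 0.20; edgeR adjusted p = 0.228) in that comparison. Of 13 pumps and exchangers, 12 had exonic tags and 6 were tested, 0 were called by either tool in any comparison, and 1, 2 and 0 had such a p. All 6 were higher in ipsilateral against contralateral cortex with a median of 0.46. Atp1b1, a subunit of the sodium pump, had a log2 fold change of 0.53 (SE 0.24; edgeR adjusted p = 0.365) there. Of 7 calcium release and calmodulin genes, 3 were tested, 0 were called by either tool, and 0, 1 and 1 had such a p. Of 15 other cation and chloride channel genes, 0 could be tested.

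Tags in introns of channel genes numbered 1739, against 3153 exonic tags, and the genes in the next paragraphs were named after these values were seen. Intron-only peaks made up 41.6% of channel peaks and 23.1% of the peaks of other named genes. By tags summed over all libraries the shares were 34.9% and 36.3%. Per library, the share by tags was 33.8 ± 7.17% for channel genes and 29.2 ± 13.8% for other named genes (SD, n = 13). The channel share was the higher in 10 of 13 libraries, and the exceptions were replicate 1 of each group. Of the 154 intron-only channel peaks, 103 belonged to Kcnip4, so the higher channel share by peaks rests on that gene. Kcnip4, a calcium-binding partner of A-type potassium channels, had 900 intronic tags in 103 peaks over chr5:48686463-49273645 and no exonic tag. Its intronic tags per 10000 peak tags were 15.4, 20.7, 20.2, 25.3 and 31.7 in ipsilateral libraries, 20.7, 38.4, 20.1 and 64.4 in contralateral libraries and 12.4, 41.2, 24.6 and 28.2 in sham libraries. The groups overlapped, and replicate 1 was the lowest library in the ipsilateral and sham groups. When all peaks of each gene were summed, Kcnip4 passed the filter, and its log2 fold change was -0.57 (SE 0.33; edgeR adjusted p = 0.574) in ipsilateral against contralateral cortex.

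Some other intronic peaks drew most of their tags from 1 replicate number. The Kcnh5 peak at chr12:75017335-75017414 had 91 tags, 83 of them (91.2%) in the 3 replicate 1 libraries, and the highest Kcnma1 peak, chr14:23461236-23461315, had 76 tags, 66 of them (86.8%) in replicate 1. Replicate 1 held 46.8% of channel intronic tags, 66.2% of all intronic tags and 35.7% of channel exonic tags. For Kcnip4 it held 35.9%, close to its share of exonic tags.

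Cacna1c, the L-type calcium channel, had 71 intronic tags in 13 peaks. Its intronic tags per 10000 peak tags were 0.311, 0.862, 1.38, 0 and 0 in ipsilateral libraries, 0.912, 3.96, 5.03 and 5.09 in contralateral libraries and 2.39, 3.51, 2.23 and 2.26 in sham libraries. All 5 ipsilateral libraries lay below all 4 sham libraries, and contralateral libraries spanned both. The ipsilateral values rest on 10 tags and the sham values on 35. At 0 tags, the limits (3 tags, counting error only) were 4.22 and 7.94 in ipsilateral replicates 4 and 5. Both lie above the sham range, so these libraries cannot show a lower value. Among the 14 channel genes with at least 20 intronic tags, Cacna1c was the 1 gene lower in all ipsilateral than in all sham libraries, where the background was 1.95% of 974 genes, and 0 were higher (0.103%). Kcnd2, an A-type potassium channel pore, was the 1 of 14 higher in all contralateral than in all sham libraries (background 0.719%), with 1.06, 1.19, 1.26 and 3.39 in contralateral libraries and 0.845, 0, 0 and 0 in sham libraries, from 15 and 6 tags. The limits for the sham libraries at 0 were 1.31, 1.67 and 1.13 in replicates 2, 3 and 5, which reach into the contralateral range. In ipsilateral against contralateral cortex 0 of 14 were higher (0%) and 0 lower (0.719%), and 0 of 14 were lower in contralateral than in sham cortex (0.719%).

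**Figure D5:**
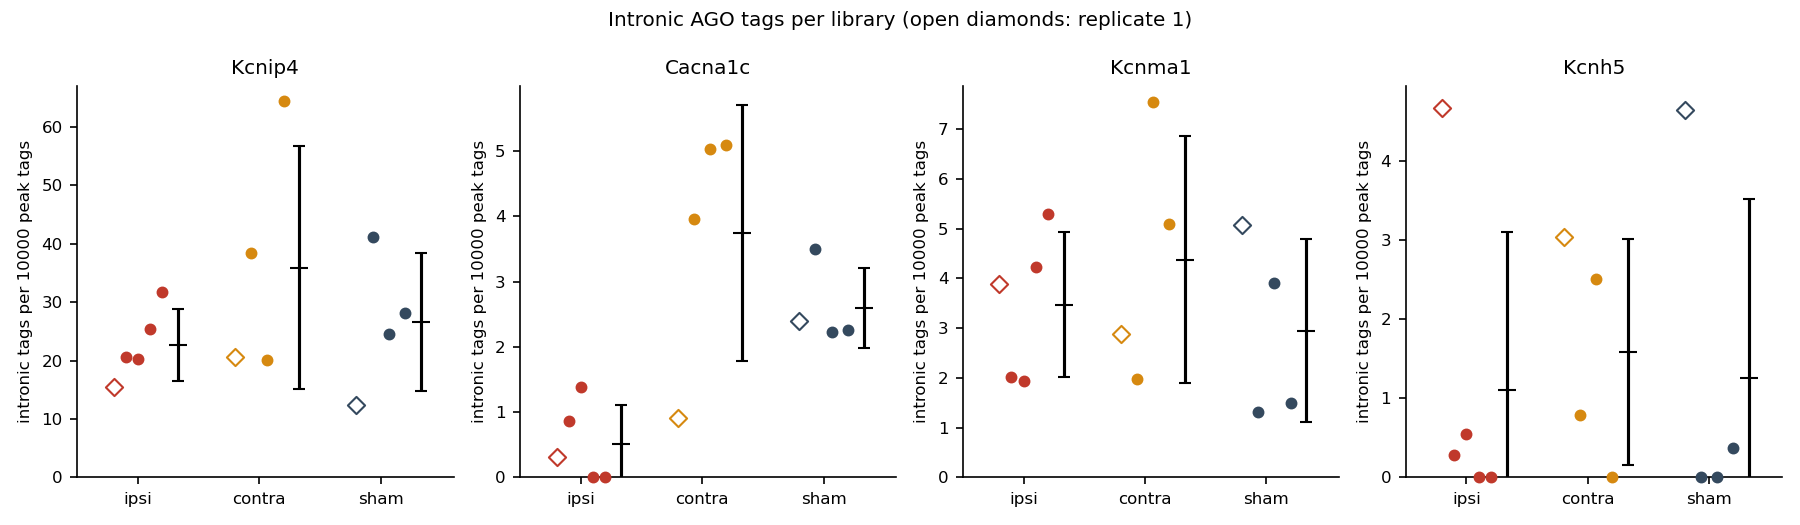
Intronic tags per 10000 peak tags (y axis) of Kcnip4, Cacna1c, Kcnma1 and Kcnh5, 1 point per library with the mean and SD beside it, for MCAO ipsilateral (ipsi), MCAO contralateral (contra) and sham libraries (x axis), with the libraries of replicate 1 as open diamonds. Kcnh5 stands at 4.67 and 4.65 in ipsilateral and sham replicate 1 and near 0 in the other libraries of those groups.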

How the data were processed

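AGO peaks were analysed in 13 AGO CLIP libraries of mouse cortex. The authors deposited raw tag counts per peak (80-base windows with gene and region labels) and per miRNA, and reads were aligned with Novoalign to mm10, per the submitters' processing notes. How peaks were called, on which libraries, and whether duplicate tags were collapsed is not given in the sources used here. High and low molecular weight AGO complexes were pooled, per the labels. Exonic tag counts were summed per gene and fitted with edgeR 4.0.16 (TMM, filterByExpr by group, quasi-likelihood test, all 13 libraries in 1 fit, adjusted p under 0.05), and each SE is the one implied by the F statistic. DESeq2 1.42.0, other scalings, no filter, a replicate block and left-out libraries were alternatives. Exact permutation tests of library shares covered genes with at least 20 exonic tags. One peak without a position was left out. Channel genes, lists and tests were chosen with earlier results of these data known. Named genes are the 25 with most exonic tags, any with an edgeR p under 0.05, and any gene past the filter whose groups lie apart; some of these are not reported here. Per the series description, a replicate number marks a surgery day, so the numbers pair libraries. Deviations from group means correlated at 0.02 to 0.54 for the same number (median 0.24, 11 pairs) and at -0.43 to 0.26 for different numbers (median -0.08, 45 pairs). Replicates may share other technical factors, and p-values measure the spread between these libraries. Peak coordinates were read as 0-based starts and are printed 1-based.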

Additional observations from a re-analysis of the deposited data

Results flagged for a closer look

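Over the class, the roles, 7 named genes and 5 intronic sums, 11 of 81 groups of 4 or 5 libraries held 1 library far from the others by Dixon's criterion. Its nominal rate of about 1 in 20 groups is for normally distributed values, not for small tag counts. A group with 1 library above 0 and the others at 0 is always flagged. The 11 flags therefore cannot be compared with that rate. Ipsilateral replicate 1 had 102 tags per 10000 exonic tags on the voltage-gated potassium alpha subunits (205 tags), against 50.3 to 64.8 in the other ipsilateral libraries. Ipsilateral replicate 5, the shallowest, had 29.1 on Scn2a1 (8 tags), against 10.5 to 15.4, and 18.2 on the calcium channel alpha1 subunits (5 tags), against 8.08 to 9.96.

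Ipsilateral replicate 4 had 154 channel tags per 10000 CDS tags (17 tags), against 109 to 120 in the other ipsilateral libraries. Contralateral replicate 4 had 1.75 on the inward rectifiers (1 tag), against 7.00 to 7.33, and 1.75 on the HCN channels (1 tag), against 0 in the other contralateral libraries. Among intronic sums per 10000 peak tags, Kcnh5 had 4.67 in ipsilateral replicate 1 (0 to 0.554 in the others) and 4.65 in sham replicate 1 (0 to 0.376 in the others). Kcnd2 had 3.39 in contralateral replicate 5 (1.06 to 1.26 in the others) and 0.845 in sham replicate 1 (0 in the others), and Cacna1c had 3.51 in sham replicate 2 (2.23 to 2.39 in the others).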

How the results depend on the processing

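No channel gene was called in any comparison under the reported settings or any alternative run. Of 447 alternative values for 21 channel gene results, 433 kept their sign and their side of the threshold and 14 reversed. Without the 3 libraries of replicate 1, the log2 fold change of Kcna1 was -0.21 in ipsilateral against sham and -0.38 in ipsilateral against contralateral, and that of Scn8a was 0.13 in ipsilateral against contralateral. With the replicate block, Scn8a was 0.11 in contralateral against sham. The sign turned for Kcna1 without ipsilateral replicate 1, for Kcna2 without that library or contralateral replicate 4, and for Scn8a without ipsilateral replicate 4, contralateral replicate 1, 2 or 4, or sham replicate 1, depending on the comparison. With 1 library left out at a time, Kcna1 ranged from -0.0963 to 0.456 in ipsilateral against sham and from -0.210 to 0.321 in ipsilateral against contralateral, and Kcna2 from -0.396 to 0.467 in ipsilateral against contralateral. Scn8a ranged from -0.280 to 0.0335 in ipsilateral against sham, from -0.231 to 0.151 in ipsilateral against contralateral and from -0.238 to 0.0728 in contralateral against sham. The class log2 ratio was 0.0514 in 3'UTR peaks alone for ipsilateral against sham, with all 3'UTR tags as the denominator in place of all exonic tags. Over all peaks of the genes it was -0.245 for ipsilateral against contralateral and 0.386 for contralateral against sham. With 1 library left out at a time it ranged from 0.145 to 0.263, from -0.0678 to 0.0505 and from 0.148 to 0.260 in the 3 comparisons. Over all genes, ipsilateral against sham gave 7 calls with DESeq2, 2 without a filter, 5 with the replicate block, 0 over all peaks of a gene, 2 without replicate 1 and 0 to 10 with 1 library left out, against 1 as reported. Ipsilateral against contralateral gave 6 with DESeq2, 2 without a filter, 4 with the replicate block, 3 without replicate 1 and 0 to 10 with 1 library left out, against 0. The 10 calls in each came without ipsilateral replicate 1. The cause was not tested. At this depth, 57 of 64 channel genes did not pass the filter of the edgeR fit.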
